A study of Mus musculus with 12 samples.

Results

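The genes described here are the insulin-like growth factor (IGF) binding proteins Igfbp2, Igfbp3, Igfbp4, Igfbp5, Igfbp6 and Igfbp7, the ligand Igf1 and its receptor Igf1r, taken by gene symbol from every library's table. They are 8 of the 24359 genes that could be compared, and 7 of them passed the filter on low values, the exception being Igfbp6. The study measured RNA in endothelial cells sorted by flow cytometry from lungs of 5-day-old (P5) C57BL/6J mice, with 4 libraries in each of 3 groups. L12YT-ECKO cells came from mice carrying VE-cadherin-CreERT2, a Cre recombinase expressed in endothelial cells, with loxP-flanked (floxed) Lats1, Lats2, Yap and TAZ (gene symbols Yap1 and Wwtr1). L12-ECKO cells carried the same Cre with floxed Lats1 and Lats2 only. WT cells are labelled wild type, and the labels do not say whether these mice carried Cre or were given an inducer. LATS1 and LATS2 are the Hippo pathway kinases that restrain the transcriptional co-activators YAP and TAZ, so the series sets kinase loss beside kinase loss without the co-activators.

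IGF1 and IGF2 are secreted growth factors that signal through the IGF1 receptor, a tyrosine kinase upstream of PI3K and AKT. Most of the IGF in circulation is held by binding proteins, of which IGFBP1 to IGFBP6 bind IGFs with high affinity and IGFBP7 binds them weakly. The binding proteins limit or prolong IGF action depending on the tissue and on proteases that cut them, and several also act independently of IGF. Endothelial cells both secrete IGF-binding proteins and carry the receptor.

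Values are the authors' normalized log2 expression from 3-prime RNA sequencing, in which each transcript is read near its end, so values are not scaled by transcript length. A difference of 1 is a factor of 2, the depth is unknown, and a gene listed at 0 may not have been sampled. Between 9850 and 13078 genes lay above 0 in a library. In 5 libraries (L12YT-ECKO replicates 3 and 4, L12-ECKO replicates 2, 3 and 4) a block of rows that holds none of these genes was displaced. The other 7 libraries, including all 4 WT libraries, had their rows in place, so the displacement was treated as a batch. All 12 endothelial markers were detected in every library. Their summed level was 18.293 to 18.422 in L12YT-ECKO, 18.21 to 18.275 in L12-ECKO and 18.302 to 18.341 in WT. The L12-ECKO sums thus lay slightly below all those of both other groups. L12-ECKO replicate 1 stood apart in its immune markers, whose summed level was 16.4 there, against 6.96 to 11.7 in the other 11 libraries. Of the targeted genes, Wwtr1 averaged 8.81 ± 0.51 in L12YT-ECKO and 11.81 ± 0.19 in WT (SD, n = 4 each; limma adjusted p = 0.00066). Yap1 averaged 7.72 ± 0.69 in L12YT-ECKO and 9.79 ± 0.24 in WT, a log2 difference of -2.08 that missed the threshold against WT (limma adjusted p = 0.184) and passed it against L12-ECKO (-2.25, adjusted p = 0.0388). Lats1 and Lats2 did not pass the test in L12-ECKO against WT (log2 differences -2.70 and 1.0, limma adjusted p = 0.562 and 0.260). A 3-prime read outside the deleted part of a gene cannot check its deletion, and the labels do not name the deleted exons.

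Of the 8 genes, Igfbp3 was the only one that passed the test in any comparison: it was 15.9-fold higher in L12-ECKO than in WT. The other binding proteins, Igf1 and Igf1r did not pass in any of the 3 comparisons. In L12YT-ECKO, where Yap and TAZ were floxed as well, Igfbp3 lay between the other groups and passed the test against neither. The panels of values by library show all 8 genes.

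**Figure D1:**
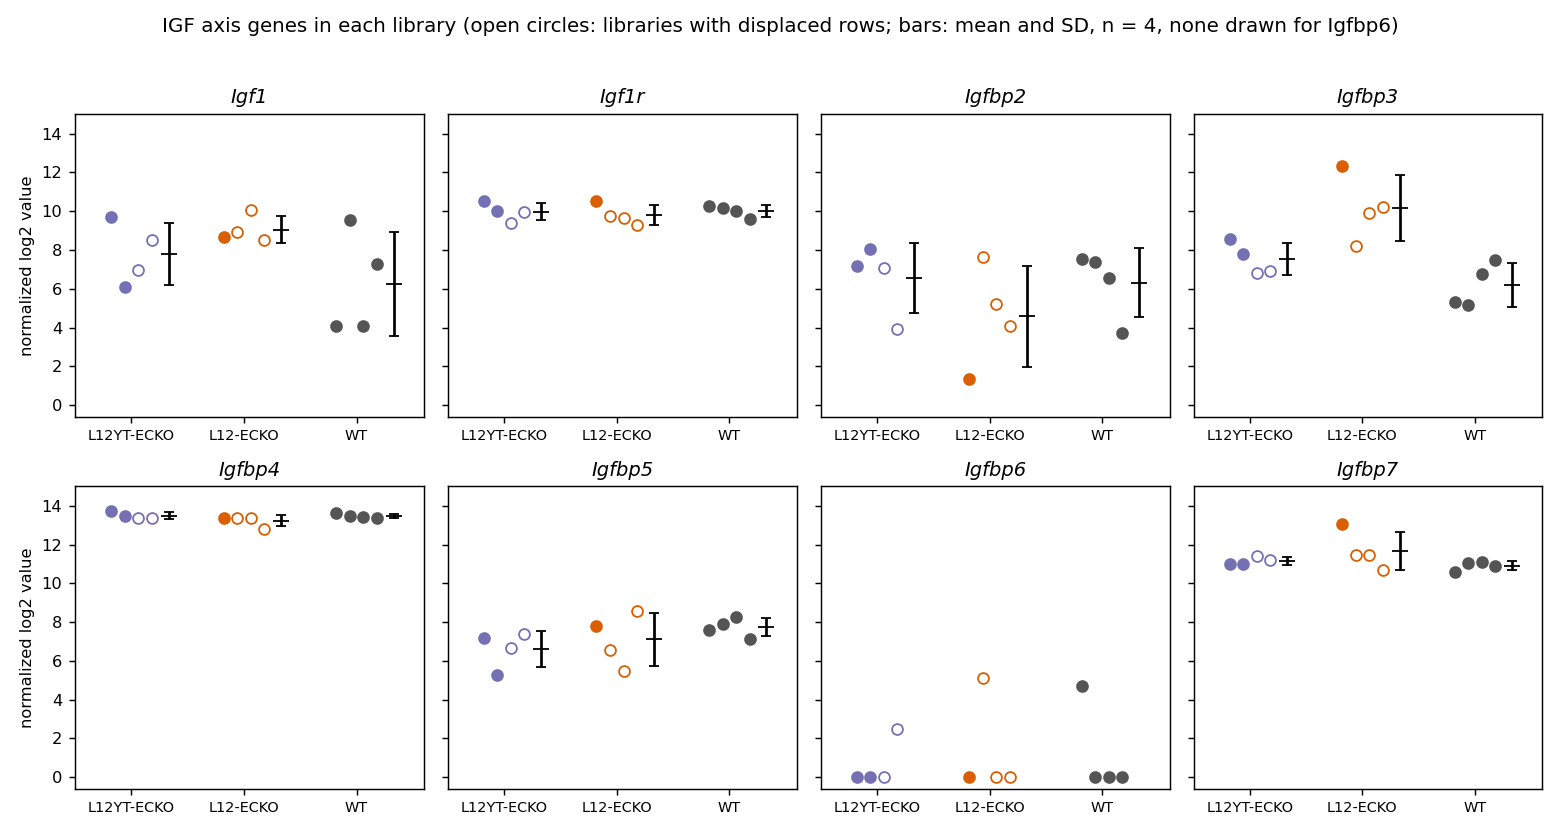
Normalized log2 value (y axis) of each gene in each library, with L12YT-ECKO, L12-ECKO and WT from left to right, replicates 1 to 4 from left to right within a group, open circles for libraries with displaced rows and bars for the mean and SD of 4 libraries. The 4 L12-ECKO points of Igfbp3, 8.22 to 12.35, all lie above the 4 WT points, 5.18 to 7.51, while Igfbp4 stays between 12.82 and 13.74 in all 12 libraries.

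Igfbp3 encodes the binding protein that carries most circulating IGF, in a ternary complex with the acid-labile subunit. It had values of 8.58, 7.78, 6.81 and 6.94 in L12YT-ECKO replicates 1 to 4. The L12-ECKO libraries had values of 12.35, 8.22, 9.90 and 10.24, and the WT libraries 5.30, 5.18, 6.74 and 7.51. Every L12-ECKO library was above every WT library, the lowest L12-ECKO library was below the highest L12YT-ECKO library, and the L12YT-ECKO and WT ranges overlapped. The spread was wide, with SDs of 0.82 in L12YT-ECKO, 1.70 in L12-ECKO and 1.13 in WT around means of 7.53, 10.18 and 6.18. Among all genes of a library, Igfbp3 ranked 4296 to 7496 in L12YT-ECKO, 308 to 4967 in L12-ECKO and 6298 to 9485 in WT.

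In L12-ECKO against WT the log2 difference of Igfbp3 was 3.99 (SE 0.76, 95% interval 2.41 to 5.58), with an adjusted p of 0.0267 by limma with Benjamini-Hochberg adjustment over 11633 genes. It was thus 1 of 7 tested genes called, where 0.481% of all tested genes were called (34 higher, 0.292%, and 22 lower). It was also the only 1 of the 7 with non-overlapping higher values, which 2.97% of all tested genes had, and 0 of the 7 had non-overlapping lower values, which 3.36% had. In L12YT-ECKO against L12-ECKO the difference was -2.65 (SE 0.76, 95% interval -4.24 to -1.07), with an unadjusted p of 0.00245 and an adjusted p of 0.418. In L12YT-ECKO against WT it was 1.34 (SE 0.76, 95% interval -0.24 to 2.93; adjusted p = 0.822). In these 2 comparisons 0 of 7 genes were called, where 0.0688% and 0.0086% of all tested genes were called by limma. At an unadjusted p under 0.05 there was 1 of 7 against L12-ECKO, which is Igfbp3, and 0 of 7 against WT, where 6.08% and 6.23% of all tested genes had one. Of the genes called against L12-ECKO, those lower in L12YT-ECKO were 0.0602% of all tested genes. Values that did not overlap were found for 0 of 7 genes in either comparison, beside 2.75% of all tested genes higher and 1.62% lower in L12YT-ECKO against L12-ECKO, and 2.54% higher and 2.17% lower in L12YT-ECKO against WT. The L12YT-ECKO libraries therefore gave no call against either group. The interval against L12-ECKO, which is not adjusted for the number of genes tested, lay wholly more than 1 log2 unit below 0. That interval includes L12-ECKO replicate 1, the highest library for Igfbp3. When 1 library was left out, the difference against L12-ECKO ran between -3.30 and -1.93. The value of -1.93 came without L12-ECKO replicate 1 (limma unadjusted p = 0.0198, adjusted p = 0.730). The interval against WT held 0 and also differences of more than 1 log2 unit.

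The call in L12-ECKO against WT was near the threshold. It was lost without L12-ECKO replicate 1 (3.27, adjusted p = 0.0804), without L12-ECKO replicate 4 (3.97, 0.0610), without WT replicate 1 (3.70, 0.0860) and without WT replicate 2 (3.66, 0.0875). The direction held in each, as it must where the values of the groups do not overlap. No WT library had displaced rows, so a term for the displaced-row batch comes from the knockout libraries alone. Within L12-ECKO that term sets replicate 1 against replicates 2, 3 and 4. With this batch as a covariate the difference was 5.48 (adjusted p = 0.0089). Among the 7 libraries in place it was 6.17 (adjusted p = 0.0236), but there the L12-ECKO group is replicate 1 alone, the highest of all for Igfbp3 and assumed to vary like the libraries of the other groups, so this is the value of 1 library and no check on the batch. Of the 4 L12-ECKO libraries, the 3 with displaced rows were also the 3 from females, so that batch and sex cannot be told apart within this group. With sex as a covariate, the difference was 4.34 and the adjusted p was 0.0502. For L12YT-ECKO against L12-ECKO, the differences within the batches were -4.17 in the libraries in place, again against replicate 1 alone, and -2.58 in those with displaced rows (adjusted p = 0.381 and 0.823). For L12YT-ECKO against WT it was 1.99 in the libraries in place (adjusted p = 0.927).

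Markers of other cells also differed between libraries. L12-ECKO replicate 1, the highest for Igfbp3, had S100a8 at 15.20 and S100a9 at 15.56. It stood apart in level and not in the number of the 12 immune markers above 0, which was 9 there and 5 to 9 in L12YT-ECKO, 4 to 9 in L12-ECKO and 3 to 7 in WT. The summed immune level was 6.96 to 10.3 in L12YT-ECKO, 7.66 to 16.4 in L12-ECKO and 6.99 to 11.7 in WT, and 2 of the 12 markers were at 0 throughout each group. Without that library the Igfbp3 difference was 3.27 and no longer called (adjusted p = 0.0804). The summed level of 15 liver markers was 8.78 to 11.2 in L12YT-ECKO, 10.1 to 12.7 in L12-ECKO, highest in replicate 1, and 8.54 to 9.96 in WT, so L12-ECKO and WT did not overlap. In replicate 1, however, only 5 of the 15 were above 0, with Alb at 1.03 and Ahsg at 0. The number above 0 followed the batch: 11 to 14 in every library with displaced rows and 3 to 6 in every library in place. Of the 9 tested liver markers, 9 were higher by sign in L12-ECKO than in WT (median log2 difference 2.73), and limma called 0 of them. The summed level of 8 pericyte and smooth muscle markers was 9.05 to 10.2 in L12YT-ECKO, 8.07 to 9.12 in L12-ECKO and 9.53 to 10.8 in WT, so L12-ECKO and WT did not overlap here either. L12-ECKO replicate 4, at 10.24 for Igfbp3, had the lowest immune, liver and pericyte sums of its group (7.66, 10.1 and 8.07). The same library had the highest value of its group for the pericyte marker Rgs5 (5.11), and its mesenchymal sum (15.03) was not the lowest. The part of the immune, liver and pericyte markers in the Igfbp3 result was not tested. In bulk RNA, a change in the share of cells that express a gene and a change in RNA per cell cannot be told apart.

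Igfbp3 lies on the minus strand of mouse chromosome 11 (GRCm38, chr11:7206086-7213923, a protein-coding gene with up to 5 exons), and no annotated gene overlaps it. Its neighbour Igfbp1, which encodes an insulin-regulated binding protein made mainly by liver, lies 3539 bases away on the opposite strand, with no coding gene between. Igfbp1 was listed at 0 in 2 L12YT-ECKO libraries, 3 L12-ECKO libraries and 3 WT libraries, and its highest value was 6.93 in L12-ECKO replicate 3. YAP and TAZ reach DNA through TEAD factors, whose known binding motif is GGAATG, or CATTCC on the other strand. The 8 genes matched 9 promoter entries from RefSeq (GRCm38.p6), each spanning 250 bases before to 50 bases after a gene start, and 1 of the 9 held the motif on either strand, against 14.7% of all 32851 such promoters. That entry belongs to Igfbp5, whereas the promoter of Igfbp3 holds no match in this window. The 2 promoters are shown, 5′ to 3′ on the minus strand, because one belongs to the gene that rose in L12-ECKO and the other to the relative with the motif, which is in capitals. They span chr11:7213874-7214173 and chr1:72874816-72875115.
Igfbp3 promoter: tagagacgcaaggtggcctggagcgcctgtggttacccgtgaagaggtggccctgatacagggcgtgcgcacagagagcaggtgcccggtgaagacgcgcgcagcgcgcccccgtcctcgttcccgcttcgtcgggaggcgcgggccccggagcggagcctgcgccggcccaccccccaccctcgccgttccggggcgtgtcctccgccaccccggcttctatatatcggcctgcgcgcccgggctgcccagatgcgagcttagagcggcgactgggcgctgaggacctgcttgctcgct
Igfbp5 promoter: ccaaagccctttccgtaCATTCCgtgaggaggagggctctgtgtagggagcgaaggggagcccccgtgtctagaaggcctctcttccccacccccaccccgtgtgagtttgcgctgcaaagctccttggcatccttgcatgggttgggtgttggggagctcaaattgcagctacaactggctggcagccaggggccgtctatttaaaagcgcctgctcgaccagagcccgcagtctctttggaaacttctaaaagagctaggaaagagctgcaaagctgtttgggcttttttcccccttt
The Igfbp3 window has a GC content of 71.7% and 37 CpG dinucleotides, and 7.36% of all promoters have a GC content at least as high. The Igfbp5 window has a GC content of 56.3% and 10 CpG dinucleotides, and its motif begins at base -233 relative to the start. A motif match is a description of the sequence and was not tied to binding here.

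Igfbp7 encodes a secreted protein abundant in vessels, also known as angiomodulin, that binds IGFs weakly. Its values were 11.01, 11.01, 11.40 and 11.19 in L12YT-ECKO, 13.06, 11.45, 11.47 and 10.71 in L12-ECKO, and 10.61, 11.06, 11.12 and 10.88 in WT. L12-ECKO replicates 2 and 3 lay just above every library of both other groups. L12-ECKO replicate 4 lay within the WT range and below all L12YT-ECKO values, and L12-ECKO replicate 1 lay far above all other libraries. The log2 difference was 0.76 in L12-ECKO against WT (SE 0.36, 95% interval -0.00 to 1.52; limma adjusted p = 0.411), and 0.30 without L12-ECKO replicate 1 (adjusted p = 0.711). Among the 7 libraries in place, where that outlying library is the only L12-ECKO one and its spread is taken from the other groups, the difference was 2.15 (adjusted p = 0.0265), which is no replicated test. Igfbp7 passed under none of the other 23 settings. The differences were 0.24 in L12YT-ECKO against WT and -0.52 in L12YT-ECKO against L12-ECKO (adjusted p = 0.937 and 0.912). Igfbp7 (chr5:77349240-77408041, minus strand) shares its last 85 bases with the end of Polr2b on the opposite strand. Polr2b encodes a subunit of RNA polymerase II and averaged 9.55 in L12YT-ECKO, 9.87 in L12-ECKO and 9.73 in WT; whether the counting kept the strands apart is not given in the sources used here.

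Igfbp4, whose protein is cleaved by the protease PAPP-A to release IGF, was the highest of the 8 genes in every library. Its values were 13.74, 13.46, 13.37 and 13.37 in L12YT-ECKO, 13.36, 13.39, 13.36 and 12.82 in L12-ECKO, and 13.64, 13.45, 13.40 and 13.37 in WT. The groups overlapped and the SDs, 0.18 in L12YT-ECKO, 0.28 in L12-ECKO and 0.12 in WT, were the smallest of the 8 genes in each group. The log2 differences were -0.23 in L12-ECKO against WT (95% interval -0.64 to 0.17), 0.02 in L12YT-ECKO against WT (-0.39 to 0.42) and 0.25 in L12YT-ECKO against L12-ECKO (-0.15 to 0.66), with limma adjusted p of 0.644, 0.993 and 0.936. All 3 intervals stay within 1 log2 unit of 0. Igfbp4 ranked 71 to 110 among all genes in L12YT-ECKO, 108 to 198 in L12-ECKO and 80 to 110 in WT.

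Igfbp2 and Igfbp5 lie end to end on chromosome 1 (chr1:72824503-72852474, plus strand, and chr1:72857932-72874884, minus strand), 5457 bases apart with no coding gene between. Igfbp2, a binding protein with an RGD sequence through which it also contacts integrins, had values of 7.17, 8.06, 7.09 and 3.93 in L12YT-ECKO, 1.36, 7.66, 5.21 and 4.08 in L12-ECKO, and 7.56, 7.38, 6.57 and 3.72 in WT. Each group held at least 1 library far below its highest, and the groups overlapped. The log2 difference in L12-ECKO against WT was -1.73, with a 95% interval of -4.69 to 1.24 (limma adjusted p = 0.642), and -0.66 without L12-ECKO replicate 1. In L12YT-ECKO it was 0.26 against WT and 1.99 against L12-ECKO (adjusted p = 0.987 and 0.912).

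Igfbp5, which binds extracellular matrix and is the best conserved of the family, had values of 7.17, 5.26, 6.64 and 7.37 in L12YT-ECKO, 7.81, 6.56, 5.50 and 8.60 in L12-ECKO, and 7.60, 7.91, 8.24 and 7.14 in WT. The WT values were the closest together, and both other groups reached below them and overlapped them. The log2 differences were -0.61 in L12-ECKO against WT (95% interval -2.21 to 0.99), -1.11 in L12YT-ECKO against WT (-2.71 to 0.48) and -0.51 in L12YT-ECKO against L12-ECKO (-2.10 to 1.09), with limma adjusted p of 0.779, 0.836 and 0.975. Single libraries moved these differences by more than 1.5 times. When 1 library was left out, that of L12-ECKO against WT ran between -1.10 (L12-ECKO replicate 4 out) and -0.0683 (L12-ECKO replicate 3 out). That of L12YT-ECKO ran between -1.37 (its replicate 4 out) and -0.66 (its replicate 2 out) against WT, and between -1.05 (L12-ECKO replicate 3 out) and -0.0132 (L12-ECKO replicate 4 out) against L12-ECKO. Igfbp6, which prefers IGF2 over IGF1 (chr15:102144362-102149511, plus strand), was above 0 in 1 library of each group: 2.48 in L12YT-ECKO replicate 4, 5.11 in L12-ECKO replicate 2 and 4.72 in WT replicate 1. It was listed at 0 in the other 9 libraries, and no fold is given.

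To set Igfbp3 beside its relatives, the value of each relative was subtracted from that of Igfbp3 in the same library, and the groups were compared by exact two-sided permutation tests, for which the smallest possible p with 4 against 4 libraries is 0.0286. Igfbp6 was left out because it was mostly at 0. Igfbp3 minus Igfbp4 was -5.17, -5.68, -6.56 and -6.43 in L12YT-ECKO, -1.01, -5.16, -3.46 and -2.57 in L12-ECKO, and -8.34, -8.27, -6.66 and -5.86 in WT. The L12-ECKO values lay above all values of both other groups, with L12YT-ECKO replicate 1 just under L12-ECKO replicate 2. The difference of group means was 4.23 in L12-ECKO against WT and -2.90 in L12YT-ECKO against L12-ECKO (exact p = 0.0286 each, and 0.0857 each after adjustment over the 12 exact tests).

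Against Igfbp5 and Igfbp7 the pattern between L12-ECKO and WT was the same in kind. All these differences share the same Igfbp3 values, so they are not separate results. Igfbp3 minus Igfbp5 averaged 3.06 ± 1.63 in L12-ECKO and -1.54 ± 1.37 in WT, and Igfbp3 minus Igfbp7 averaged -1.50 ± 1.25 in L12-ECKO and -4.73 ± 1.10 in WT (SD, n = 4 each; exact permutation p = 0.0286 each, 0.0857 adjusted). Igfbp3 minus Igfbp2 averaged 5.60 ± 4.30 in L12-ECKO and -0.12 ± 2.85 in WT, and the groups overlapped (SD, n = 4 each; exact permutation p = 0.0571, 0.114 adjusted). In L12YT-ECKO against WT the differences were 1.08 for Igfbp2, 1.32 for Igfbp4, 2.46 for Igfbp5 and 1.11 for Igfbp7, with adjusted exact p of 0.571, 0.137, 0.129 and 0.218. In L12YT-ECKO against L12-ECKO they were -4.64 for Igfbp2, -2.15 for Igfbp5 and -2.13 for Igfbp7, with adjusted exact p of 0.129, 0.137 and 0.114. None of the 12 passed after adjustment, and 4 had the smallest exact p possible. With groups of 4, at least 7 of the 12 tests had to reach that smallest p before any could pass, so the adjusted tests had little room to pass and their failure says nothing on whether Igfbp3 and a relative moved alike.

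**Figure D2:**
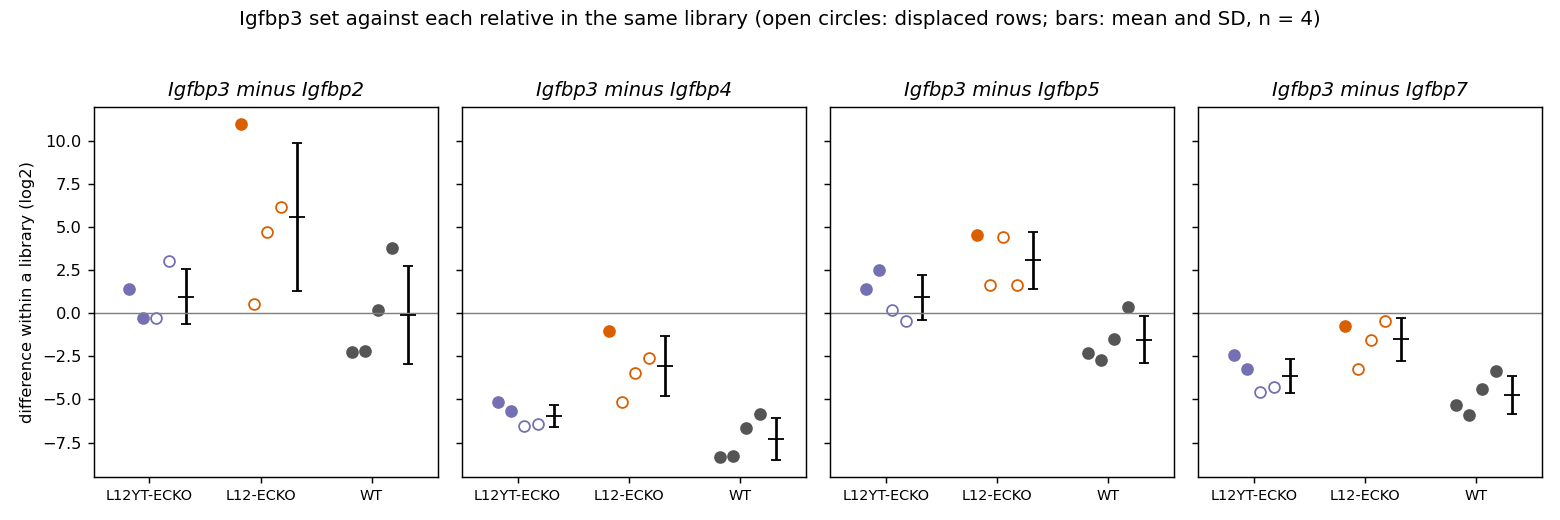
Log2 value of Igfbp3 minus that of Igfbp2, Igfbp4, Igfbp5 or Igfbp7 in the same library (y axis), for L12YT-ECKO, L12-ECKO and WT from left to right, with open circles for libraries with displaced rows and bars for the mean and SD of 4 libraries. In the Igfbp5 panel all 4 L12-ECKO points are at or above 1.65 and all 4 WT points at or below 0.37.

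Igf1, the ligand (chr10:87858265-87937042, plus strand), had values of 9.68, 6.07, 6.95 and 8.53 in L12YT-ECKO, 8.69, 8.92, 10.08 and 8.54 in L12-ECKO, and 4.08, 9.54, 4.10 and 7.26 in WT. The L12-ECKO values lay close together, whereas the WT values spanned more than 5 log2 units and WT replicate 2 exceeded 3 of the 4 L12-ECKO libraries. The log2 difference in L12-ECKO against WT was 2.81 (SE 1.11, 95% interval 0.44 to 5.18), with an unadjusted p of 0.0233 and a limma adjusted p of 0.328. Unadjusted p-values under 0.05 were found for 12.2% of all tested genes in that comparison. In L12YT-ECKO the difference was 1.56 against WT and -1.25 against L12-ECKO (adjusted p = 0.842 and 0.956). Igf1 is made in quantity by liver and by mesenchymal cells. The liver markers, whose summed level did not overlap between L12-ECKO and WT, were above 0 for 3 to 14 of 15 in L12YT-ECKO, 5 to 13 in L12-ECKO and 3 to 6 in WT. By batch, 11 to 14 were above 0 in every library with displaced rows and 3 to 6 in every library in place. The summed level of 10 mesenchymal markers was 14.04 to 15.03 in L12YT-ECKO, 14.3 to 15.1 in L12-ECKO and 13.8 to 14.6 in WT, and L12-ECKO overlapped WT. Such a linear sum follows its highest genes. Of the 8 tested mesenchymal markers, 6 were lower and 2 higher by sign in L12-ECKO than in WT (median log2 difference -0.517), and limma called 0. The part of the liver or mesenchymal markers in the Igf1 values was not tested. The antisense gene Igf1os overlaps 5117 bases of Igf1, away from its 3-prime end.

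Igf1r, the receptor (chr7:67952827-68233668, plus strand), had values of 10.51, 10.02, 9.40 and 9.99 in L12YT-ECKO, 10.55, 9.77, 9.65 and 9.31 in L12-ECKO, and 10.27, 10.16, 10.04 and 9.61 in WT. The 3 ranges overlapped, and the WT range was the narrowest and lay inside both others. The log2 differences were -0.20 in L12-ECKO against WT (95% interval -0.92 to 0.52), -0.04 in L12YT-ECKO against WT (-0.76 to 0.68) and 0.16 in L12YT-ECKO against L12-ECKO (-0.56 to 0.88), with limma adjusted p of 0.849, 0.992 and 0.985. The sign of each changed with the batch covariate, to 0.36, 0.33 and -0.03.

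**Figure D3:**
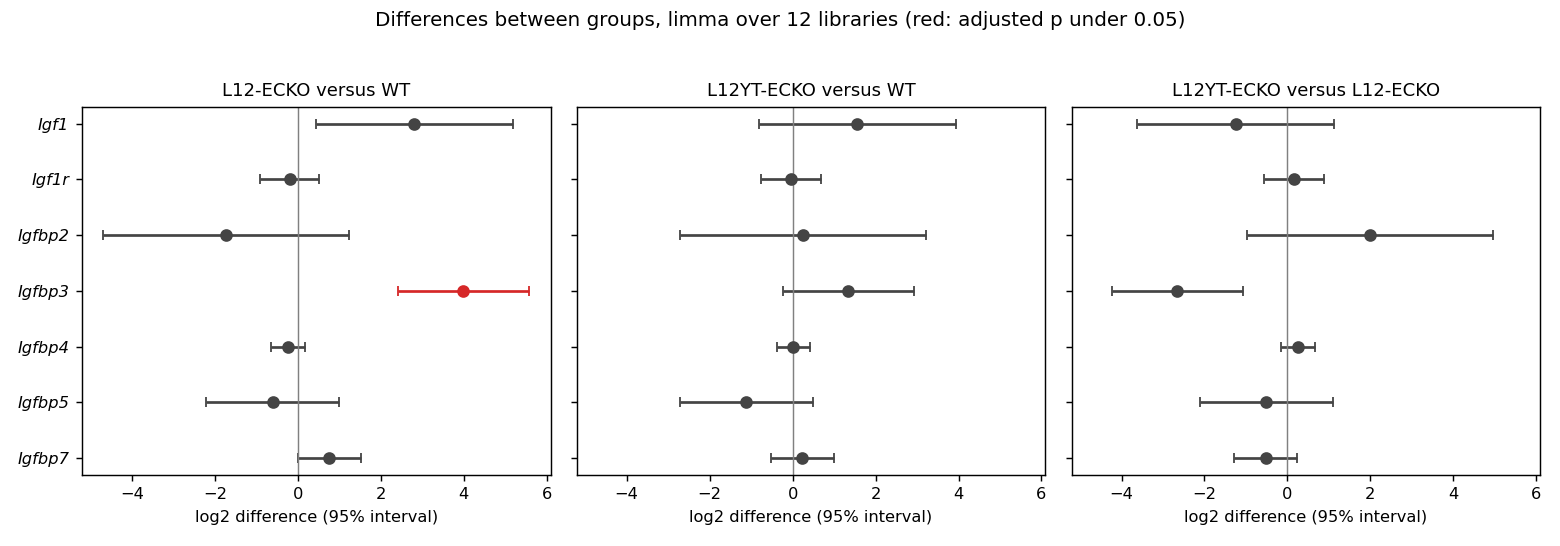
Log2 difference (x axis) with its 95% interval for the 7 tested genes, in 1 panel per comparison, from limma over 12 libraries, with red for an adjusted p under 0.05. Only Igfbp3 in L12-ECKO against WT, at 3.99, is red, and the intervals of Igfbp4 and Igf1r stay within 1 log2 unit of 0 in every panel.

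The order of the genes within a group, by mean level, was led by Igfbp4 and then Igfbp7 in all 3 groups. In WT, Igfbp4, Igfbp7, Igf1r and Igfbp5 followed each other with ranges that did not overlap, and the next neighbours Igfbp5, Igfbp2, Igf1 and Igfbp3 did overlap. In L12YT-ECKO the ranges of Igfbp4, Igfbp7 and Igf1r were apart, and those from Igf1r through Igf1, Igfbp3 and Igfbp5 to Igfbp2 overlapped in turn. In L12-ECKO Igfbp3 stood after Igfbp7 and before Igf1r by mean, and every neighbouring pair overlapped. By mean, Igfbp3 was in place 5 of the 8 genes in L12YT-ECKO, place 3 in L12-ECKO and place 7 in WT.

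The genes whose values followed Igfbp3 most closely over the 12 libraries, of 11632 others tested, were Crim1, Cebpd, Trp53i11, Nus1 and Mcl1, with Pearson r of 0.92, 0.91, 0.90, 0.90 and 0.90. Crim1 encodes a transmembrane protein with an IGF-binding protein-like motif, and averaged 10.50 ± 0.30 in L12YT-ECKO, 12.07 ± 0.31 in L12-ECKO and 10.06 ± 0.28 in WT (SD, n = 4 each). Cebpd encodes a transcription factor of the C/EBP family and averaged 10.42 ± 0.73, 11.38 ± 0.88 and 9.56 ± 0.44 in the same groups. Like Igfbp3, Crim1 and Cebpd were highest on average in L12-ECKO, intermediate in L12YT-ECKO and lowest in WT. They were picked for following Igfbp3 in these libraries, so the shared order is no separate result. Each of the most alike genes, like Igfbp3, had its highest value in L12-ECKO replicate 1, the library set apart by its immune markers. The least alike were Gimap4 and Pcsk5, each with r of -0.90. Gimap4 encodes a GTPase of the immunity-associated family, and averaged 11.98 in L12YT-ECKO, 11.10 in L12-ECKO and 12.45 in WT. Pcsk5, a proprotein convertase, averaged 9.70 in L12YT-ECKO, 8.88 in L12-ECKO and 10.18 in WT. Ctgf and Cyr61, textbook targets of YAP and TAZ, were the 8th and 15th most alike (r = 0.87 and 0.85). Ctgf was 6.18 log2 units higher in L12-ECKO than in WT and Cyr61 4.22 (limma adjusted p = 0.00038 each). In L12YT-ECKO against L12-ECKO, Ctgf was -4.23 and Cyr61 -3.47 (adjusted p = 0.0191 and 0.00521). Among the other 6 tested genes of the group, r with Igfbp3 was 0.66 for Igfbp7, 0.46 for Igf1, 0.01 for Igf1r, -0.05 for Igfbp5, -0.42 for Igfbp4 and -0.67 for Igfbp2. These correlations are descriptions over libraries that fall into 3 groups and share batches, and r was not split into parts between and within groups.

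The wider IGF axis was described by 53 genes in 7 lists, of which 43 were tested. The 45 genes beyond the 8 included 36 tested ones, and 0 of the 36 were called in any comparison. At an unadjusted p under 0.05 there were 3 of 36 in L12-ECKO against WT, 1 of 36 in L12YT-ECKO against WT and 3 of 36 in L12YT-ECKO against L12-ECKO, beside 12.2%, 6.23% and 6.08% of all tested genes, so these counts are no result about the axis. Their median log2 differences were -0.07, 0.06 and 0.20 in these comparisons, beside -0.02, 0.08 and 0.09 over all genes tested. The 3 genes in L12-ECKO against WT were Igf2r at 0.77, Tsc1 at 1.14 and Pik3cb at -1.79, with limma adjusted p of 0.390, 0.373 and 0.282.

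**Figure D4:**
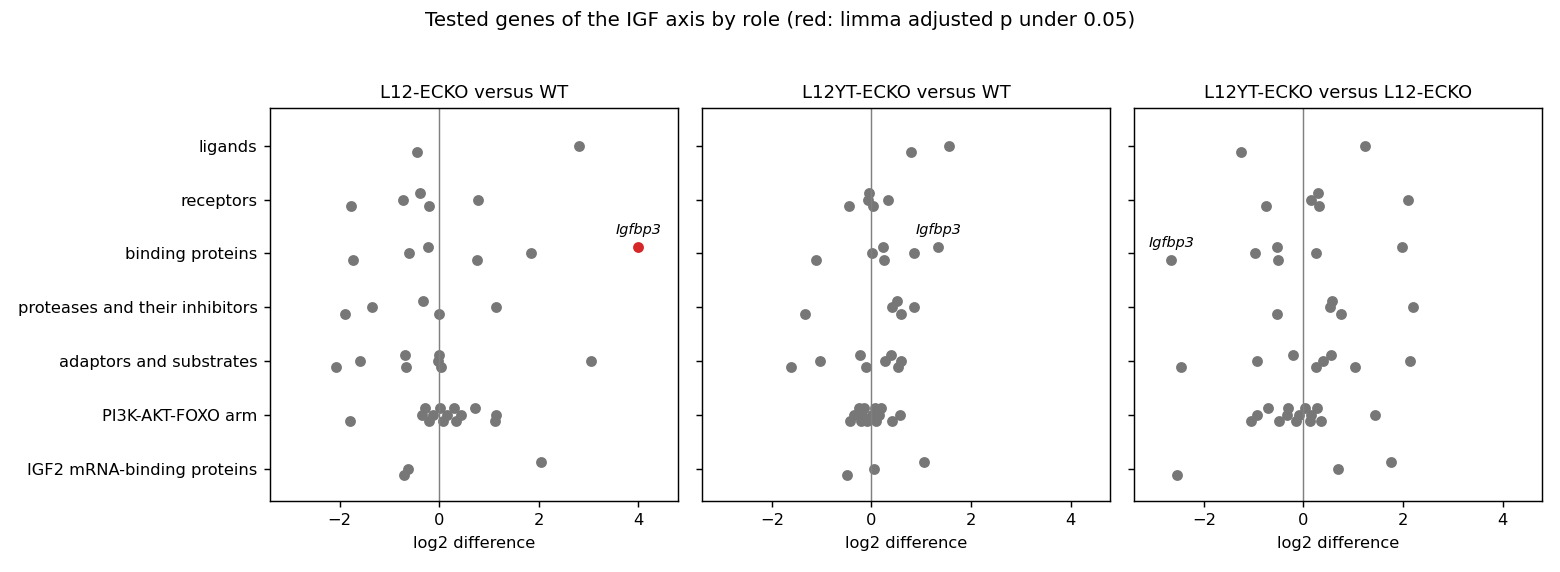
Log2 difference (x axis) of each tested gene of the IGF axis, 1 point per gene, in rows by role and in 1 panel per comparison, with red for a limma adjusted p under 0.05. Igfbp3 in L12-ECKO against WT, at 3.99, is the only red point, and the PI3K-AKT-FOXO arm lies between -1.79 and 1.14 in that comparison.

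Among the ligands, 0 of 2 tested genes were called. Igf2, the fetal growth factor, had values of 10.91, 10.71, 10.77 and 10.86 in L12YT-ECKO, 11.08, 9.64, 7.87 and 9.68 in L12-ECKO, and 9.48, 10.42, 9.56 and 10.58 in WT. The L12YT-ECKO values lay close together and above all 4 WT values, while the L12-ECKO values ran from above to below both. The difference in L12YT-ECKO was 0.80 against WT and 1.24 against L12-ECKO (limma adjusted p = 0.828 and 0.714). Non-overlapping higher values in L12YT-ECKO against WT were found for 2.54% of all tested genes. Ins1, which encodes insulin, was listed at 0 in 11 libraries and at 0.31 in L12-ECKO replicate 4.

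Among the receptors, 0 of 5 were called. Igf2r, which binds IGF2 for uptake and degradation, averaged 9.93 ± 0.58 in L12YT-ECKO, 10.68 ± 0.54 in L12-ECKO and 9.91 ± 0.30 in WT. Insr, the insulin receptor, averaged 7.78 ± 0.93, 7.49 ± 1.23 and 8.22 ± 0.44 in the same groups (SD, n = 4 each). Of the binding proteins, 1 of 6 tested was called in L12-ECKO against WT, which is Igfbp3, and the sixth is Kazald1, an IGF-binding protein-related gene. Kazald1 averaged 5.72 ± 0.89 in L12YT-ECKO, 6.71 ± 1.84 in L12-ECKO and 4.87 ± 1.32 in WT (limma adjusted p = 0.543 for L12-ECKO against WT).

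Of the proteases and their inhibitors, 0 of 5 tested were called, 1 of them higher and 4 lower by sign in L12-ECKO against WT. Adamts1, a metalloproteinase, averaged 11.22 ± 0.28 in L12YT-ECKO, 10.69 ± 0.23 in L12-ECKO and 10.71 ± 0.40 in WT, and Stc1, a stanniocalcin, 8.86 ± 0.52, 8.11 ± 0.71 and 8.44 ± 0.54 (SD, n = 4 each). Of the adaptors and substrates, 0 of 8 tested were called. Grb10, an adaptor that inhibits IGF1 and insulin receptor signaling, averaged 11.19 ± 0.35 in L12YT-ECKO, 10.80 ± 0.33 in L12-ECKO and 10.80 ± 0.73 in WT, and Grb2, the adaptor that links receptors to RAS, 10.11 ± 0.27, 10.32 ± 0.38 and 10.34 ± 0.26. Sos1, the exchange factor that Grb2 recruits, was -1.62 in L12YT-ECKO against WT (limma adjusted p = 0.757).

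Of the PI3K-AKT-FOXO arm, 0 of 14 tested genes were called, and the median difference was 0.11 in L12-ECKO against WT, -0.03 in L12YT-ECKO against WT and -0.12 in L12YT-ECKO against L12-ECKO. Akt1 averaged 11.22 ± 0.26 in L12YT-ECKO, 10.86 ± 0.38 in L12-ECKO and 11.20 ± 0.34 in WT, and Tsc2, which restrains mTORC1, 12.23 ± 0.25, 12.10 ± 0.70 and 12.08 ± 0.59 (SD, n = 4 each). Of the 3 genes for IGF2 mRNA-binding proteins, which bind RNA and not IGF, 0 were called. Igf2bp3 averaged 6.99 ± 0.19 in L12YT-ECKO, 6.29 ± 1.63 in L12-ECKO and 6.93 ± 1.40 in WT, and Igf2bp1 was at 0 in L12YT-ECKO replicate 4 and WT replicate 2 and between 3.02 and 7.91 in the other 10 libraries.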

How the data were processed

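RNA from sorted lung endothelial cells was sequenced with the Lexogen QuantSeq 3-prime kit, 1 library per sample, per the labels' protocols. Bowtie2, edgeR and mm10 are named in the submitters' processing notes, with no versions or roles. The authors deposited log2 values for 24421 genes per library. No source states the scale: a log2 scale and quantile normalization were inferred, since at each of the 5000 highest ranks the libraries differed by no more than 0.168. Such normalization forces 1 common distribution on all libraries and can hide a change in total output. The offset of low values is unknown, and since a library's lowest value above 0 lay anywhere between 0.067 and 4.981, precision is poorest there. Depth is unknown, and no interval for counting error is given. The 27 genes under date-like names in 2 libraries and 35 rows displaced or exchanged in 5 libraries were left out, which kept 24359.

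Groups follow the sample titles. The labels do not say that libraries came from separate animals. The p-values therefore rest on the spread between libraries, and in limma also on the variance of other genes of similar level. limma 3.58.1 (R 4.3.3, statmod 1.5.0) fitted group means to the deposited log2 values of the 12 libraries, moderating variances with a mean-dependent, robust prior (residual degrees of freedom 9, prior 10.1 in the median). The 11633 genes whose CPM reached 1 in 4 or more libraries were tested, the CPM being computed from 2 raised to the deposited value. P-values were adjusted by Benjamini-Hochberg and called at 0.05. The fit was tested on simulated data. Igfbp3 minus each relative was compared by exact two-sided permutation tests (scipy 1.17.1), adjusted over 12. Marker levels were summed on the linear scale and given as log2. Sex was read from Xist and Ddx3y. Alternatives covered the filter, low values, scaling, the variance prior, the samples fitted, batch, sex, a replicate block and leaving out each library. Coordinates are from GENCODE M21 (GRCm38) and promoters from RefSeq (GRCm38.p6). Named beyond the 8 genes were the called genes and the 2 highest others of each list, the targeted genes, Ctgf and Cyr61, and the 5 genes most and 2 least correlated with Igfbp3. Sos1, Tsc1, Pik3cb, Polr2b, S100a8, S100a9 and Rgs5 were named after their values were seen. The genes and lists were chosen with earlier results of these data known.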

Additional observations from a re-analysis of the deposited data

Results flagged for a closer look

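In 24 groups of 4 values (8 genes in 3 groups), 4 held a library whose gap to the nearest other exceeded 0.829 of the group's whole range, where chance flags about 5% of groups. Igfbp4 was 12.82 in L12-ECKO replicate 4, while the other 3 libraries of that group lay between 13.36 and 13.39, so the gap made up 0.961 of the range. Without that library the L12-ECKO against WT difference of Igfbp4 was -0.10, against -0.23 with it. Igfbp6 was 2.48 in L12YT-ECKO replicate 4, 5.11 in L12-ECKO replicate 2 and 4.72 in WT replicate 1, with the other 3 libraries of each group at 0. Each of these 3 values stands against libraries in which the gene may not have been sampled. With the other 3 values tied at 0 the gap is the whole range by construction, so the 5% share does not apply to Igfbp6.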

How the results depend on the processing

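The rise of Igfbp3 in L12-ECKO against WT kept its direction under all 24 other settings, but most of these could not reverse it. Settings that change only the filter or the variance leave the difference at 3.99. Leaving out libraries or rescaling cannot reverse groups whose values do not overlap. The rise passed the threshold under 16 settings, of which the libraries in place hold a single L12-ECKO library and are no replicated check. It did not pass without the filter on low values (adjusted p = 0.0542), without the trend of the variance prior (0.159), with only the groups compared in the fit (0.0505), with sex as a covariate (0.0502) or without 1 of 4 libraries. Leaving out each library gave 3.27 to 4.65 (adjusted p 0.0112 to 0.0875). The cause was not tested. Igfbp3 in the other comparisons passed under none of the other settings, 24 against WT and 25 against L12-ECKO.

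The counts of called genes moved more. In L12-ECKO against WT, 56 became 21 without the filter, 27 with a second logarithm, 7 without the trend, 30 with only the groups compared, 15 with the batch covariate, 15 with the sex covariate and 15 to 80 when a library was left out. In L12YT-ECKO against WT, 1 became 0 without the trend (688 at an unadjusted p under 0.05) and 1 to 3 when a library was left out. In L12YT-ECKO against L12-ECKO, 8 became 4 with a second logarithm, 3 without the trend, 5 with only the groups compared, 14 in libraries in place, 0 in libraries with displaced rows (396 at an unadjusted p under 0.05), 5 with the sex covariate and 4 to 9 when a library was left out.

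Signs changed only for differences that passed no threshold. In L12-ECKO against WT these were Igfbp5 (0.0828 in libraries in place) and Igf1r (0.36 with the batch covariate, 0.53 in libraries in place, 0.18 with the sex covariate). In L12YT-ECKO against WT they were Igfbp2 (-0.0590 with the batch covariate, -0.61 to 1.13 when a library was left out), Igfbp4 (-0.0671 to 0.0776 when a library was left out) and Igf1r (0.33 with the batch covariate, 0.25 in libraries in place, -0.22 to 0.15 when a library was left out). In L12YT-ECKO against L12-ECKO they were Igfbp2, Igfbp5 and Igfbp7 (-0.14, 0.12 and 0.0813 in libraries with displaced rows) and Igf1r (-0.0261 with the batch covariate, -0.28 in libraries in place, -0.22 with the sex covariate, -0.0158 to 0.40 when a library was left out). L12-ECKO against WT could not be compared within libraries with displaced rows, which hold no WT library.

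Same-numbered libraries did not deviate together (r of -0.05 to 0.06), and in the 3 comparisons 2, 0 and 4 of 8 libraries correlated best with their own number in the other group, so the numbers were not taken as pairs. With the replicate block 43, 1 and 6 genes were called, and Igfbp3 in L12-ECKO against WT had an adjusted p of 0.0244. For Igfbp3 minus a relative, sign-flip tests of 4 pairs cannot go below an exact p of 0.125. Leaving out a library did not change a sign, and with values under 5 raised to 5, 0 of 12 passed, as before.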
